A study of Mus musculus with 6 samples.

Results

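The genes described here are the mouse translation initiation factor genes, taken by symbol as every gene whose name starts with Eif1 to Eif6, leaving out the Eif4ebp and Eif2ak genes, which code for regulators of these factors, and symbols that hold a hyphen. The rule found 50 of the 34714 gene symbols counted in gastrocnemius (Gas) muscle. Of these, 47 passed the filter on low counts, among 15788 symbols tested in all. The rule used no measured value. The 3 members that the filter removed were Eif4e1b, a relative of the cap-binding protein, with 4 reads in WT library 2 and 4 in M92KO library 3, Eif4a3l1, with 3 reads in WT library 1, and Eif2c5, with no read in any library. The upper limit that a count of 0 allows was 3 reads, or between 0.0628 and 0.0916 CPM per library (reads scaled to a common library total). Eif2c5 matches the rule by its letters, but its symbol belongs to the Argonaute naming and it is not an initiation factor.

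RNA-seq was carried out on Gas muscle, a calf muscle, of 3 WT mice and 3 male knockout mice at 8 weeks of age. The knockout mice lacked miR-92b in every tissue (miR-92b-/-, called M92KO). No treatment is listed for these samples. The paper's methods state that mice were fasted overnight before muscle was taken, at the end of a course of treatment and tests. Those methods do not say whether this covered the mice sequenced here, so their feeding state is uncertain. The knockout is global, so every cell type of the muscle lacked the gene in M92KO mice. The knockout was made on C57BL/6JGpt, the WT mice were C57BL/6 of the same age, and 1 library was made from each mouse. Whether the groups were littermates is not given in the sources used here. The comparison addresses which transcripts differ in muscle when miR-92b is missing. A gene for miR-92b itself was not analysed here.

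Translation of an mRNA starts when the small ribosomal subunit, carrying the initiator Met-tRNA, is brought to the cap at the 5′ end of the message and scans to a start codon. eIF4E binds the cap, eIF4G is the scaffold and eIF4A the helicase that unwinds the leader, while eIF3 holds the ribosomal subunit, eIF1 and eIF1A set start codon choice, eIF2 delivers the tRNA as a GTP complex and eIF2B recharges eIF2 with GTP. eIF5 triggers GTP hydrolysis, eIF5B joins the large subunit, and phosphorylation of eIF2 and release of eIF4E from its binding proteins are the main points of control, through which skeletal muscle adapts protein synthesis to feeding and exercise.

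The sequences of both arms of the deleted miRNA, and the places where its seed could pair in the members' transcripts, are shown because miRNAs act through such pairing. In the mature sequences, from RefSeq (GRCm38.p6), capitals mark the seed, bases 2 to 8. miR-92b-3p lies at chr3:89227126-89227147 and miR-92b-5p at chr3:89227165-89227188, both on the minus strand.
miR-92b-3p: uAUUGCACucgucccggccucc
miR-92b-5p: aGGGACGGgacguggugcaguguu

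The 3′-UTRs of GENCODE M21 (GRCm38) were searched on the sense strand for the letters GTGCAATA, GTGCAAT and TGCAATA for miR-92b-3p, and CCGTCCCA, CCGTCCC and CGTCCCA for miR-92b-5p, counting overlapping matches as 1 site. Of the 47 members tested, 4 held a match to miR-92b-3p (8.51%), against 13.8% of 13495 tested genes with a 3′-UTR. These were Eif1, a start codon selection factor, Eif2s1, the alpha subunit of eIF2, Eif4g2, an eIF4G relative that works without the cap-binding protein, with a pair of matches, and Eif5b, the subunit joining factor. 1 member held a match to miR-92b-5p, Eif3j1, the loosely bound eIF3 subunit (2.13%, against 5.56% of genes). The members' median 3′-UTR was 964 bases and that of all genes with one 1187 bases. Each match is given below at the end of the 30 bases that lead up to it, as sense-strand DNA with the match in capitals.
Eif1, chr11:100321513-100321519, plus strand: cttggactagtgtaactccttcaTGCAATA
Eif2s1, chr12:78886694-78886700, plus strand: gaacatgaaggtgttaccaaagcTGCAATA
Eif4g2, chr7:111072297-111072303, minus strand: ttgctcagtaatacttgagttgtTGCAATA
Eif4g2, chr7:111072449-111072455, minus strand: gtttagatagaatattagcagcaTGCAATA
Eif5b, chr1:38052919-38052925, plus strand: aagaattaacacaattatttacaTGCAATA
Eif3j1, chr2:122055571-122055577, plus strand: aggaagggagaactttattgtgaCCGTCCC
All 5 matches to miR-92b-3p were of the kind that pairs with bases 2 to 7 and faces an A, with no match at base 8. A match is a match of letters only. None of the 5 genes differed at the threshold of the test described below.

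The libraries held between 33160508 and 48209846 counts, and every WT library was larger than every M92KO library. M92KO library 1 stood apart from the other M92KO libraries, with a chi-square per degree of freedom of 57.4 against each of them, while they differed from each other by 10.9 and the WT libraries by 12.8 to 29.6. The summed CPM of 8 skeletal muscle markers lay between 132441 and 149353 in WT and between 131598 and 141181 in M92KO. The tissue was thus skeletal muscle, but the sum does not tell one muscle from another. It also hides opposite moves of myosin genes in M92KO library 1. Myh1 was at 9659 CPM there, against 15773 and 16770 in M92KO libraries 2 and 3. Myh4 was at 31500 CPM, against 24994 and 22933. The 6 fibroblast markers were all lower in M92KO by estimate, summing to 1708 to 2268 CPM in WT and 1151 to 1596 CPM in M92KO. The 5 Schwann cell markers summed to 121 to 164 CPM in WT and 121 to 125 CPM in M92KO, and the 5 endothelial markers to 738 to 817 and 645 to 840 CPM. The 5 leukocyte markers summed to 43.0 to 44.7 CPM in WT and 27.3 to 41.2 CPM in M92KO. Other lists ran higher or wider in M92KO by their sums. The 5 red cell markers were at 74.0 to 223 CPM in WT and 143 to 336 CPM in M92KO. The 5 fat cell markers were at 312 to 363 and 311 to 390 CPM. The 3 satellite cell markers were at 8.85 to 11.9 and 11.7 to 13.8 CPM, but they disagreed. Pax7 and Myf5 had log2 fold changes of 0.56 and 0.21, and Chrdl2 had -0.63, with every M92KO value below every WT value. All 5 red cell and all 5 fat cell estimates were above 0, with medians of 0.66 and 0.62 on the log2 scale. Standard errors were 0.39 to 0.44 for the red cell markers and up to 0.72 for the fat cell markers. None was at an unadjusted p under 0.05 (edgeR quasi-likelihood test). Among the fat cell markers, Plin1 and Retn averaged 0.288 and 0.359 CPM in WT and 0.461 and 0.733 CPM in M92KO. Fabp4, at 324 CPM in WT, had a log2 fold change of 0.04 ± 0.10 (SE). No marker was at 0 in all libraries, and the part of these differences in any result was not tested. In whole muscle, fewer cells of a type and less RNA per cell cannot be told apart.

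Initiation factor transcripts were spread over a wide range of levels, which are compared between genes only as CPM per kilobase of the longest coding transcript. Eif1 was the most abundant in both groups, at 419 ± 11.5 CPM per kilobase in WT and 465 ± 50 in M92KO (mean ± SD, n = 3 in each). Eif1 has 13 similar genes (at least 95% identity over at least 200 bases), so its reads may have been split or shared. The longest match is 96.7% over 662 bases, in Emd. Eif5a, which carries the hypusine residue and acts mainly in elongation, was at 211 ± 8.13 in WT and 210 ± 15 in M92KO, beside Eif4a2, the helicase, at 185 ± 5.48 in WT and 215 ± 3.78 in M92KO. The lowest among the 47 was Eif5a2, the rarer copy of Eif5a, at 0.555 ± 0.0317 in WT and 0.517 ± 0.150 in M92KO. Eif2b3, the gamma subunit of eIF2B, was the next lowest with 5.44 ± 0.0945 in WT. As a share of all counts, the members made up 0.675%, 0.660% and 0.661% in WT mice and 0.677%, 0.687% and 0.702% in M92KO mice. Every M92KO share lay above every WT share, by a narrow margin between M92KO library 1 and WT library 1.

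**Figure D1:**
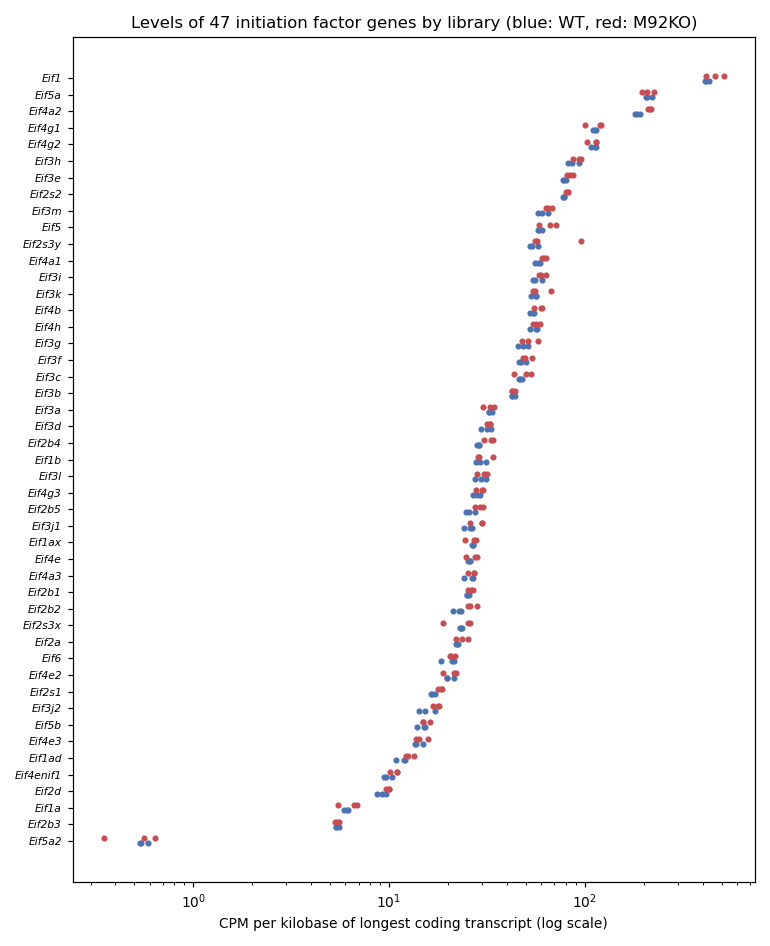
Levels of the 47 tested initiation factor genes in each of the 6 libraries, as CPM per kilobase of the longest coding transcript on a log axis, ordered by the mean (blue points, WT; red points, M92KO). Eif1 sits at the top and Eif5a2 at the bottom, and for most genes the points of the groups lie side by side.

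No member passed an adjusted p of 0.05 (edgeR quasi-likelihood test, Benjamini-Hochberg over 15788 symbols), and none of all genes tested did (0%). The smallest adjusted p among the members was 0.258, for Eif2b2, and the largest 0.993. At an unadjusted p under 0.05, used below as a description only, 3 members were higher in M92KO, which is 6.38% of the 47 against a background of 5.47% of all genes, and 0 were lower, against 6.92% of all genes. The share of higher members is near the background. Members whose 3 M92KO values all lay above all 3 WT values numbered 9, or 19.1%, against 8.77% of all genes, and 0 had all M92KO values below all WT values, against 9.58%. The members were unlike the background in depth and precision. Their median was 81.2 CPM against 13.8 for all genes tested, and their median standard error 0.0717 against 0.123. Their median transcript was 2554 bases, against 3059. The part of these contrasts in these shares, or in the share of estimates above 0 below, was not tested.

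The estimates of the members leaned to one side. In 41 of 47 the log2 fold change (M92KO over WT) was above 0, or 87.2%, against 50% of all genes, and the median was 0.07 over a range from -0.10 to 0.34, while the median of all genes tested was 0.00. Taken library by library, against the WT mean, the median member stood at -0.01, -0.02 and 0.01 on the log2 scale in WT mice and at 0.07, 0.08 and 0.10 in M92KO mice, so that the M92KO libraries all lay above the WT libraries while the median gene of all those tested stayed within 0.01 of 0 in each. The pooled SD of these medians within the groups was 0.015. For single members, the median standard error was 0.0717, with a 95% interval of ± 0.164, and for 45 of 47 members the whole interval lay within ± 0.5. The exceptions were Eif2s3y and Eif5a2. Members share libraries and are not replicates, so no test was made over them.

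**Figure D2:**
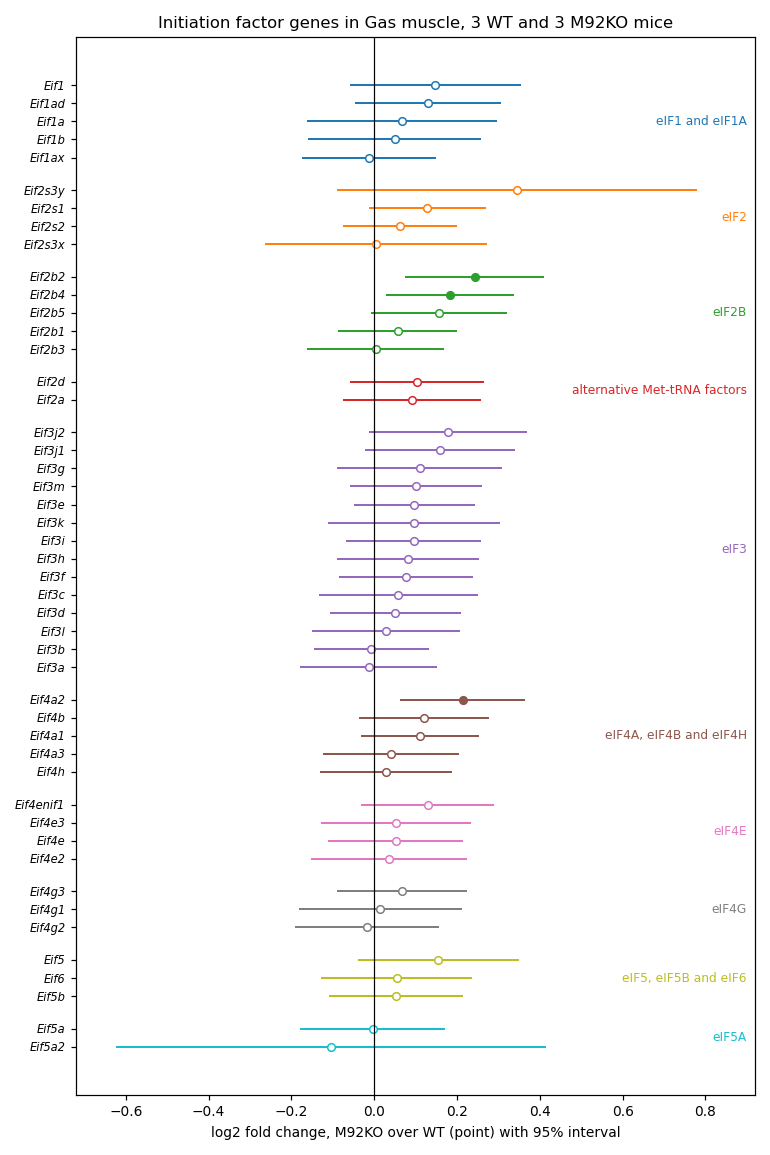
Log2 fold change of M92KO over WT for the 47 tested members, grouped by complex (points, edgeR estimates; lines, 95% intervals; filled points, unadjusted p under 0.05). Most points lie to the right of 0 and 3 are filled, those of Eif2b2, Eif2b4 and Eif4a2, while the widest intervals belong to Eif2s3y and Eif5a2.

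All 5 subunit genes of eIF2B, the exchange factor that returns eIF2 to its GTP form, had estimates above 0, with a median of 0.16. Eif2b2, the beta subunit (chr12:85219481-85226628, plus strand, GRCm38), read 36.5, 34.0 and 37.5 CPM in WT and 45.3, 40.8 and 41.7 CPM in M92KO. The M92KO mice were all higher than the WT mice, and the log2 fold change was 0.24 ± 0.07 (SE), an increase of 18.3% with an adjusted p of 0.258 in edgeR, which did not pass. Eif2b4, the delta subunit (chr5:31187558-31193430, minus strand), read 58.8, 58.7 and 57.2 CPM in WT and 62.0, 68.8 and 67.6 CPM in M92KO. Its groups did not overlap either, with M92KO library 1 the closest to WT, and its log2 fold change was 0.18 ± 0.07 (edgeR adjusted p = 0.337). Exons of Eif2b4 lie opposite those of Snx17, and since the strand setting of the counting is not given in the sources used here, their reads may not be separable.

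Eif2b5, the catalytic epsilon subunit, named here after its values were seen, read 65.7, 63.4 and 70.5 CPM in WT and 74.4, 70.6 and 77.4 CPM in M92KO. The groups were separated by the least of margins, between WT library 3 and M92KO library 2, and the log2 fold change was 0.16 ± 0.07 (edgeR adjusted p = 0.424). Eif2b1, the alpha subunit, and Eif2b3, the gamma subunit, overlapped between groups, with log2 fold changes of 0.06 ± 0.06 and 0.00 ± 0.07.

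The eIF2 genes, which code for the carrier of the initiator tRNA, had a median of 0.10 over 4 genes. Eif2s1, whose protein is the phosphorylated alpha subunit, read 56.1, 58.5 and 56.5 CPM in WT and 61.0, 63.4 and 62.6 CPM in M92KO. No value of one group reached the other, and the log2 fold change was 0.13 ± 0.06 (edgeR adjusted p = 0.446). Eif2s2, the beta subunit, stood at 198 ± 1.63 CPM in WT and 207 ± 3.35 CPM in M92KO (mean ± SD, n = 3), also without overlap, with a log2 fold change of 0.06 ± 0.06. Eif2s1 has 2 similar genes, and 992 bases of Eif2s2 are 99.5% identical in Gm9892. Reads of either gene may therefore have been split or shared.

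The gamma subunit is coded by an X-linked and a Y-linked copy. Eif2s3y, the Y-linked copy, read 96.1, 106 and 98.4 CPM in WT and 105, 102 and 175 CPM in M92KO. The last value, in M92KO library 3, stood alone, and the other M92KO values lay within the WT range, so the log2 fold change of 0.34 ± 0.19 (edgeR adjusted p = 0.517) rested on 1 library, and without it the estimate was 0.05. Eif2s3x, the X-linked copy, read 85.9, 85.3 and 84.4 CPM in WT and 68.6, 92.9 and 94.9 CPM in M92KO. M92KO library 1 was below and the other M92KO libraries above all WT values, with a log2 fold change of 0.00 ± 0.12. A stretch of 1350 bases of Eif2s3x is 100% identical in Gm2223, so the counting may have split or shared its reads. The ratio of Eif2s3x to Eif2s3y counts was 0.894, 0.806 and 0.858 in WT and 0.655, 0.913 and 0.543 in M92KO, spread more widely in M92KO than in WT.

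To see whether this copy stood alone, 3 further Y-linked genes were read in the same libraries, a set chosen after the values of Eif2s3y were seen. In M92KO library 3, Eif2s3y was 1.72 times the mean of the other 5 libraries, Ddx3y, an RNA helicase gene, 1.54 times, Kdm5d, a histone demethylase gene, 1.65 times and Uty, a relative of another demethylase, 1.53 times. Of the X-linked partners, Eif2s3x was at 1.14 times, its highest value of the 6 libraries, and Ddx3x, Kdm5c and Kdm6a were at 1.01, 1.00 and 0.979 times. The 4 Y-linked genes were each at their highest in that library. Eif2s3y had 4444, 4093 and 4700 reads in WT libraries 1, 2 and 3, so the WT mice were male, like the knockout mice.

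**Figure D3:**
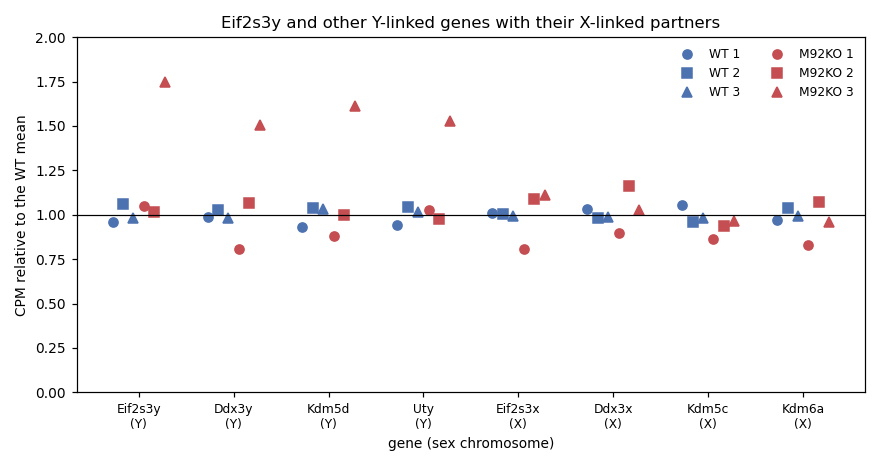
CPM of 4 Y-linked genes and their X-linked partners in each library, divided by the mean of the WT libraries (blue, WT; red, M92KO; circles, squares and triangles, libraries 1, 2 and 3). The red triangle of M92KO library 3 lies above all other points for each Y-linked gene.

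The factors that bring in the tRNA by other routes, Eif2a and Eif2d, had log2 fold changes of 0.09 ± 0.07 and 0.10 ± 0.07, with overlapping groups.

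eIF4A, the helicase of the cap complex, is coded by a pair of closely related genes. Eif4a2 (chr16:23107444-23114136, plus strand, GRCm38) read 488, 518 and 500 CPM in WT and 571, 591 and 585 CPM in M92KO. The gap between the groups was larger than the spread within either, and the log2 fold change was 0.21 ± 0.07, an increase of 15.9% (edgeR adjusted p = 0.262). Small nucleolar RNA genes lie in the gene and exons of Rfc4 lie opposite to it, so reads from these may be counted with it. Eif4a1 read 104, 98.5 and 102 CPM in WT and 112, 110 and 107 CPM in M92KO. Its groups were also separate, by a smaller margin, with a log2 fold change of 0.11 ± 0.06 (edgeR adjusted p = 0.524). Eif4a1 has 3 similar genes, the closest being Gm5513 at 96.5% over 1221 bases. Exons of Gm22988 and Gm24029 overlap it on the same strand, so its reads may also have been split or shared.

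Within a library, the ratio of Eif4a1 to Eif4a2 counts needs no scaling. It was 0.214, 0.190 and 0.205 in WT and 0.197, 0.186 and 0.183 in M92KO, on the log2 scale a difference of -0.10 with overlapping groups (two-sided exact permutation test, p = 0.2, and 0.72 after Benjamini-Hochberg adjustment over 9 pairs). Of the 9 pairs of related genes, none was separated between groups, and an exact permutation test of 3 libraries against 3 cannot give less than p = 0.1. The differences in log2 ratio ran from -0.31 for Eif2s3x to Eif2s3y up to 0.14 for Eif5a to Eif5a2. Eif4b, which stimulates the helicase, had a log2 fold change of 0.12 ± 0.07, and its groups overlapped.

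**Figure D4:**
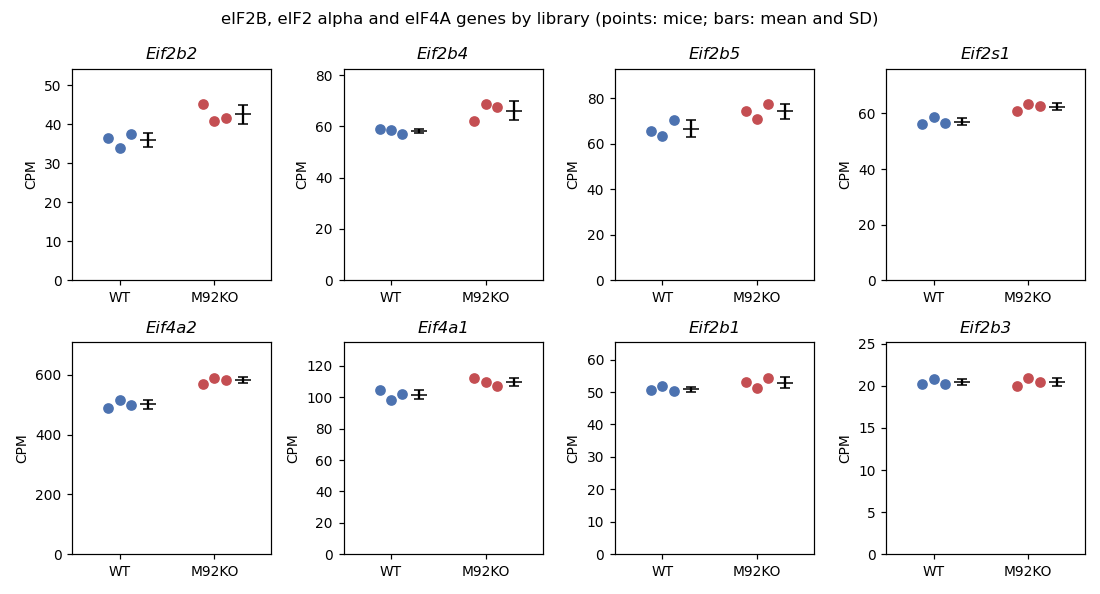
CPM of the eIF2B subunit genes, Eif2s1 and the eIF4A genes in each library (points, mice; black bars, mean and SD; every axis starts at 0). Eif2b2, Eif2b4, Eif2b5, Eif2s1, Eif4a2 and Eif4a1 have all M92KO points above all WT points, and Eif2b1 and Eif2b3 do not.

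The 14 genes of eIF3, the large scaffold of the small ribosomal subunit, had 12 estimates above 0 and a median of 0.09, over a range from -0.01 to 0.18, and none at an unadjusted p under 0.05. That median was 0.06 without M92KO library 1 and 0.04 with length and GC trends removed. Library by library, the median eIF3 gene stood at -0.02, -0.02 and 0.04 in WT and at 0.11, 0.03 and 0.08 in M92KO against the WT mean, with M92KO library 2 below WT library 3. Eif3h, the most abundant per length, read 106, 112 and 121 CPM in WT and 124, 113 and 121 CPM in M92KO, with the groups overlapping and a log2 fold change of 0.08 ± 0.07. The largest estimate belonged to Eif3j2, at 0.18 ± 0.08 (edgeR adjusted p = 0.433), and next to Eif3j1, at 0.16 ± 0.08 (edgeR adjusted p = 0.465). Their transcripts are 99.4% identical over 2379 bases, so the counting may have split or shared their reads, and both values are uncertain. Of the 14, Eif3e, named after its values were seen, was the only one with separate groups, at 118 ± 2.34 CPM in WT and 127 ± 4.93 CPM in M92KO (mean ± SD, n = 3). Eif3e has 2 similar genes, with a longest match of 96.0% over 1338 bases, so its reads may also have been split or shared.

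The cap-binding genes had small estimates. Eif4e, the major cap-binding protein gene, had a log2 fold change of 0.05 ± 0.07, Eif4e2, a weaker binder known as 4EHP, 0.04 ± 0.08, and Eif4e3 0.05 ± 0.08. Eif4enif1, which codes for a shuttling binding partner of eIF4E, had 0.13 ± 0.07. The eIF4G scaffolds gave 0.02 ± 0.09 for Eif4g1 and 0.07 ± 0.07 for Eif4g3, and -0.02 ± 0.08 for Eif4g2, with every group overlapping the other.

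Among the factors of start codon choice, Eif1 read 550, 542 and 571 CPM in WT and 682, 550 and 611 CPM in M92KO. M92KO library 1 was the highest and library 2 lay inside the WT range, and the log2 fold change was 0.15 ± 0.09 (edgeR adjusted p = 0.560). Eif1ad, a nuclear relative of eIF1A, was separate between groups at 29.8 ± 1.74 CPM in WT and 32.6 ± 1.72 CPM in M92KO (mean ± SD, n = 3), with M92KO library 1 only just above the highest WT value. Exons of Banf1 lie opposite those of Eif1ad, so their reads may not be separable. Eif1b, Eif1a and Eif1ax had log2 fold changes of 0.05 ± 0.09, 0.07 ± 0.10 and -0.01 ± 0.07. Eif5, the GTPase activator of eIF2, read 244, 234 and 237 CPM in WT and 236, 289 and 271 CPM in M92KO. Library 1 of M92KO lay among the WT values and the others above, with a log2 fold change of 0.15 ± 0.08 (edgeR adjusted p = 0.515). For Eif5b, the subunit joining factor, and Eif6, which keeps the large subunit free, the estimates were both 0.05, with overlap. Eif5a had 0.00 ± 0.08, and Eif5a2, with between 1.76 and 3.21 CPM per library, -0.10 ± 0.23.

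M92KO library 1 differed from the other M92KO libraries in step with transcript length among the members. On the log2 CPM scale its difference from the mean of M92KO libraries 2 and 3 ran from 0.28 for Eif3k, with the shortest transcript at 909 bases, to -0.76 for Eif5a2. Of the 23 members with shorter transcripts, 16 were higher in library 1, and of the 24 with longer ones 2 were. Spearman's rho of this difference with length was -0.69 over the 47 members and -0.31 over 14559 genes with a length, and 0.01 among the members for WT library 1 against the other WT libraries. These are descriptions across genes that share a library. The log2 fold change between groups also ran with length, with a rho of -0.29 over the members and -0.17 over all genes with a length, and its median was 0.09 for the 23 shorter members and 0.06 for the 24 longer ones. With trends on length and GC content taken out of every library, an alternative added after the data were seen, the member median went from 0.067 to 0.055 and that of eIF3 from 0.088 to 0.044, and 44 of 47 estimates were above 0. In that alternative 8 members were higher at an unadjusted p under 0.05, while 6.28% of all genes were, and Eif2b4 was no longer among them. Without M92KO library 1, 13 members were, while 9.62% of all genes were, and the median of the members was 0.09. The part of transcript length in the differences between groups was not tested.

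**Figure D5:**
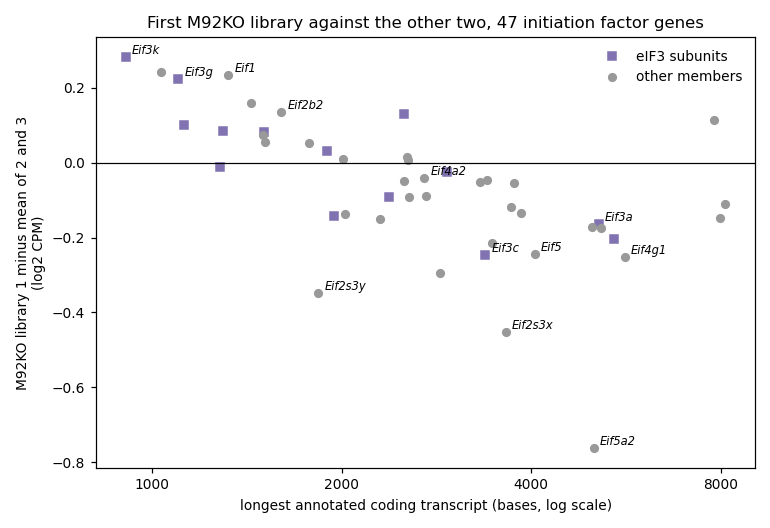
Log2 CPM of M92KO library 1 minus the mean of M92KO libraries 2 and 3 against the length of the longest coding transcript (log axis) for the 47 members (squares, eIF3 subunits; circles, others). Points fall from above 0 at short transcripts to below 0 at long ones, with Eif5a2 the lowest.

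The other translation genes were 40 regulators and partners of these factors, in a list chosen by function. 1 was higher in M92KO at an unadjusted p under 0.05 (2.5%, against 5.47% of all genes) and 1 was lower (2.5%, against 6.92%), and 25 of 40 estimates were above 0 with a median of 0.04. Mknk2, a kinase that phosphorylates eIF4E, read 321, 309 and 291 CPM in WT and 331, 432 and 449 CPM in M92KO. All M92KO values were above all WT values, with library 1 close to them, and the log2 fold change was 0.40 ± 0.11 (edgeR adjusted p = 0.248). Ppp1r15b, the constitutive partner of the phosphatase that dephosphorylates eIF2, read 55.4, 53.5 and 56.9 CPM in WT and 42.0, 51.9 and 47.1 CPM in M92KO. Its groups did not overlap, with a log2 fold change of -0.23 ± 0.09 (edgeR adjusted p = 0.336).

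The other partner genes named by rule did not reach that threshold. In the cap group, Paip1, which helps the poly(A)-binding protein, and Rps6kb2, an S6 kinase, had log2 fold changes of 0.12 and 0.11, and Mknk1, the other eIF4E kinase, Pabpc1, a poly(A)-binding protein, and Larp1, which binds terminal oligopyrimidine messages, -0.17, -0.04 and -0.03. In the eIF2 control group, Ppp1r15a, the stress-induced phosphatase partner, Atf4, a transcription factor made when eIF2 is phosphorylated, and Eif2ak1, the haem-regulated kinase, had 0.16, 0.09 and 0.05, and Eif2ak4, the amino acid sensing kinase, and Gcn1, its activator, -0.20 and -0.06. Of the helpers, Denr and Mcts1, which form a recycling and reinitiation pair, and Dhx29, a helicase, had 0.15, 0.09 and 0.15, and all 8 estimates of that group were above 0. In elongation and termination, Eef2k, the eEF2 kinase, Etf1, the release factor, and Eef1g had 0.20, 0.10 and 0.08, and Eef1a1, Eef1a2 and Eef2, the main elongation factors, -0.09, -0.09 and -0.08.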

How the data were processed

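Counts for 6 Gas muscle libraries, 3 WT and 3 M92KO, were deposited by the authors as unnormalized read counts per gene symbol, 1 column per library. RNA was taken with an RNeasy kit and libraries were made with a SMARTer kit, per the labels. The submitters' processing notes list GRCm38 and mm10. The aligner, counting program and strand setting are not given in the sources used here.

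The filterByExpr function, at a minimum count of 10 and a minimum total of 15, kept 15788 of 34714 symbols. Libraries were scaled by TMM and M92KO was compared with WT by the quasi-likelihood test of edgeR 4.0.16 in R 4.3.3, with Benjamini-Hochberg adjustment over all symbols tested. The study's own methods used limma on log2 values of all symbols, run here as an alternative (quantile normalization, pseudocount 1, limma 3.58.1). DESeq2 1.42.0 was another alternative. Most alternatives changed 1 choice, but the DESeq2 Wald test also changed the scaling, quantile normalization with limma changed scaling, test and filter, and the length and GC correction was run without and with the replicate block. Scripts were tested on simulated data. Intervals and limits cover counting error and the spread between mice only, and the depth of 33160508 to 48209846 counts per library sets the precision of genes with few counts.

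The members and gene lists were chosen with earlier results of these data known. Named genes were every member at an unadjusted p under 0.05, the most abundant per length and the lowest p of each complex, both genes of each related pair, members removed by the filter, and in each partner list up to 3 genes per direction. Eif2b1, Eif2b3, Eif2b5, Eif3e, Eif3k, Eif4b, Eif4g2, Eif5b and Eif6 were named after their values were seen. No sample title pairs the mice by replicate number, and the reported comparison treated them as unpaired. Positions and transcripts came from GENCODE M21, in which all 47 tested members were found, with 18 overlapping an exon of another gene and 16 having a match of at least 95% over at least 200 bases elsewhere.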

Additional observations from a re-analysis of the deposited data

How the results depend on the processing

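Eif2b2 was at an unadjusted p under 0.05 in all 15 alternatives, and Eif4a2 in all but the one without WT replicate 1, while Eif2b4 was so in 6 of 9 alternatives that kept all libraries but in 1 of 6 that left out a library. The limits lie in the depth of rare members such as Eif5a2 and in 3 mice per group. No member passed an adjusted p of 0.05 in any alternative, the smallest adjusted p being 0.0624 without M92KO replicate 1, where 399 of all genes passed, and 0.0768 in DESeq2, where 322 did, against 0 in edgeR, 6 without the filter and 42 with quantile normalization and limma. No sample title pairs the mice by replicate number. The correlations of same-numbered mice were 0.0806, 0.0376 and 0.0151, and those of different-numbered mice ran from -0.0686 to 0.0365. With 3 mice per group these values cannot decide whether the mice were paired. With the replicate block 2 members were higher (Eif2b2 and Eif4a2) and 1691 genes passed in all, 2 of them adjusted. At an unadjusted p under 0.05, members higher numbered 8 with quantile normalization and limma and 8 with length and GC trends removed, and 1 to 13 when 1 library was left out, 1 without WT replicate 1, 5 without M92KO replicate 2 and 13 without M92KO replicate 1. The share of all genes that were higher was 5.47% in the reported comparison and 6.28% with length and GC trends removed. When 1 library was left out it was 3.32% to 9.62%, with 9.62% without M92KO replicate 1. With quantile normalization and limma it was 3.58%, but over all 34714 symbols, including those that the filter on low counts removes elsewhere. That share cannot be set beside the others, or beside the 8 members in that setting. All genes numbered 1221 to 2984 when 1 library was left out, the most without M92KO replicate 1, and with quantile normalization 1244 were higher and 1043 lower, against 863 and 1092. Partners lower numbered 4 with quantile normalization, 0 to 2 with 1 library left out, and partners higher 1 to 3. The median log2 fold change of the members was 0.067 to 0.094 with 1 library left out, and that of eIF3 0.056 to 0.111 with 1 library left out, 0.044 with length and GC trends removed, and 0.045 with the replicate block added to that. Estimates near 0 changed sign. With length and GC trends removed Eif1ax was at 0.004, Eif1b at 0.000 and Larp1 at 0.029, and with the block added Eif1ax was at 0.003, Eif2s3x at -0.001 and Larp1 at 0.030. Eif2s3x was at -0.001 without the filter, -0.031 with quantile normalization, -0.010 with the replicate block and -0.011 when thinned to equal depth, and Eif4g1 at -0.053 with quantile normalization. When 1 library was left out, estimates ran from -0.048 to 0.043 for Eif1ax, from -0.036 to 0.099 for Eif1b, from -0.015 to 0.132 for Eif2ak1, from -0.077 to 0.140 for Eif2s3x, from -0.008 to 0.104 for Eif4e2, from -0.011 to 0.095 for Eif4e3, from -0.031 to 0.094 for Eif4g1, from -0.059 to 0.043 for Eif5a, from -0.281 to 0.112 for Eif5a2, from -0.084 to 0.032 for Larp1 and from -0.005 to 0.184 for Rps6kb2. The cause was not tested for any of these.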
